A study of Mus musculus with 10 samples.

Results

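Brachyury (gene symbol T), the caudal homeobox genes Cdx1, Cdx2 and Cdx4, and 6 further genes of the tail bud progenitor were followed in RNA sequencing of microdissected mouse tail buds. The other 6 are the zinc finger genes Sp5 and Sp8, the homeobox genes Nkx1-2 and Evx1, the receptor gene Epha1 and the growth zone gene Greb1. The 10 genes were chosen by symbol, as known genes of the tail bud progenitor and with earlier results of these data known, and all 10 were found among the 38720 symbols of the count table. All 10 also passed the filter on low counts, which left 16340 genes for testing. Between tail buds with induced Lin28a and their controls without Cre, 0 of the 10 passed the test in the fit of all libraries, where 2.91% of all tested genes passed. Cdx4 passed, as higher by 0.29 ± 0.05 (SE) in log2 fold change, in a fit of these 2 groups alone, which called 11.2% of its genes. Against wild type, Cdx1, Cdx2 and Sp8 were higher in both doxycycline-treated groups, and Cdx4 was higher in the Lin28a-induced group. That is 4 of 10 for the induced group, where 24.3% of all tested genes were higher, and 3 of 10 for the no-Cre group, where 21% were. With limma-voom in place of edgeR the counts were 8 and 7 of 10, where 24.7% and 21.4% of all tested genes were higher. In an edgeR fit with the replicate number as a block, 3 of 10 passed for the induced group, where 24% of all tested genes passed.

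The tail bud is the growth zone from which the body axis lengthens. It holds neuromesodermal progenitors, cells that can give rise to spinal cord or to the presomitic mesoderm that forms somites, and that co-express T with the neural factor Sox2. T is a T-box transcription factor needed for posterior mesoderm and the notochord, and Cdx factors act beside it to keep the progenitors and to set posterior identity. Wnt3a and Fgf8 from the growth zone keep these cells, and T and Sp5 are Wnt targets there. The RNA-binding protein Lin28a keeps let-7 microRNAs from maturing, and the series asked what this pathway does as the caudal axis grows.

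The 10 libraries came from tail buds of midgestation embryos, at the stage labelled e12point5, and formed 3 groups. The Lin28a-induced group (replicates 2 to 5, n = 4) was treated with doxycycline and carried TRE-Lin28a, RLSL-rtTA and FoxD1-Cre. TRE-Lin28a is a Lin28a transgene under a promoter that responds to doxycycline through rtTA, and rtTA is made only in cells that have expressed Cre, and in their descendants, with Cre here under the control of Foxd1. The no-Cre group (replicates 6 to 8, n = 3) was also treated with doxycycline and carried TRE-Lin28a and RLSL-rtTA without FoxD1-Cre. For the wild-type group (replicates 1 to 3, n = 3) the labels name neither a transgene nor doxycycline. The no-Cre group therefore shares treatment and 2 transgenes with the induced group, while wild type differs from both in several things at once. A library of the whole tail bud can therefore mix cells that induced the transgene with cells that did not. The labels do not say whether each library is a separate embryo, and p-values measure the spread between these libraries only.

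The induced gene set the groups apart as labelled. Lin28a was at 664, 605, 750.3 and 731 CPM (read counts over the library's TMM-scaled total) in the induced libraries, at 5.03, 4.53 and 2.64 without Cre and at 6.16, 5.72 and 4.45 in wild type. Total counts per library ran from 21762668 to 39517946, with the 3 wild-type libraries the lowest. Mitochondrially encoded genes took 0.446% to 0.69% of counts in the induced libraries, 0.525% to 0.61% without Cre and 1.85% to 2.69% in wild type. A gene is called here where its p from edgeR's quasi-likelihood test, adjusted over all tested genes, is under 0.05. Between the induced and no-Cre libraries 1.76% of tested genes were higher and 1.15% lower by that rule, and against wild type 49.3% passed in either direction for the induced group and 42.5% for the no-Cre group. The tail bud markers T, Cdx2, Nkx1-2, Wnt3a, Fgf8, Tbx6 and Msgn1 had counts in every library. Markers of surface ectoderm, hindgut and endothelium did too, so the presence of counts cannot test the tail bud label. In these bulk samples fewer cells of a type and less RNA per cell cannot be told apart.

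Since Lin28a blocks let-7, the 3′ UTRs of the 10 genes were read for the let-7 seed match. The microRNA sequence is shown from 5′ to 3′ (RefSeq, GRCm38.p6), with the seed, bases 2 to 8, in capitals.
let-7a-5p: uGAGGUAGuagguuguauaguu
The match to this seed is CTACCTC, and it was searched on the transcript strand of the longest annotated 3′ UTR of each gene (GENCODE M21, mm10). Sp8 and Greb1 held 1 match each and the other 8 genes held none, against 10.2% of the 20975 genes with an annotated 3′ UTR of at least 30 bases. The surrounding transcript is shown with the match in capitals, at bases 849 to 855 of 2704 in Sp8 and at bases 600 to 606 of 1765 in Greb1.
Sp8 site: cgtgtttgtctttttCTACCTCg
Greb1 site: tatggggtaagtaccCTACCTCt
A match of 7 bases is a description and not a measured site. Neither gene passed the test between the induced and no-Cre libraries, where Sp8 differed by 0.10 ± 0.12 (SE) and Greb1 by -0.01 ± 0.26 in log2 fold change.

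Promoters were read for 3 motifs of factors of this network, on both strands. These were the TCF/LEF motif CTTTGAA, through which Wnt signals reach their targets, the T-box motif GGTGTGA and the Cdx motif TTTATG. The RefSeq table (GRCm38.p6; 250 bases before to 50 after the start) gave 12 promoters for 9 of the 10 genes. TCF/LEF matches were in 2 of the 12, Cdx matches in 2 and T-box matches in 0, and the motifs occur in 5.14%, 11.9% and 3.98% of all 32851 promoters. T had both a TCF/LEF match, 235 bases before the start on the minus strand relative to the gene, and a Cdx match at 178 bases before it. Sp8 had a Cdx match 194 bases before 1 of its starts and a TCF/LEF match 51 bases before another. The T promoter and the Sp8 promoter with the TCF/LEF match are shown 5′ to 3′ on the gene's strand, with matches in capitals, which do not overlap. They lie at chr17:8434173-8434472 and chr12:118846983-118847282, both on the plus strand.
T promoter: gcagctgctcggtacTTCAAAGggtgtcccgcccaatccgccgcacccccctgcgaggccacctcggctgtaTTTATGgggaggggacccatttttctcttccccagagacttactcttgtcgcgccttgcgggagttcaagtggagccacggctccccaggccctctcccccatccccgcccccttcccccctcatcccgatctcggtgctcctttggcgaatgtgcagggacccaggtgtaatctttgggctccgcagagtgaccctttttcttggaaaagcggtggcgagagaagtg
Sp8 promoter: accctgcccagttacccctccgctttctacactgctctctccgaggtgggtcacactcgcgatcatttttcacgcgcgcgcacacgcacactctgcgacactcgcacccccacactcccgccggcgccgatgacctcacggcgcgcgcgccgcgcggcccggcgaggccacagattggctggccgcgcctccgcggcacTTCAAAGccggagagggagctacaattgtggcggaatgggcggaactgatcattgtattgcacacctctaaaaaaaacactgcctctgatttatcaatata
Of the 9 genes T and Sp8 alone held a match to any of the 3 motifs in these windows. T had the highest level per length of the 10 in every group. Sp5 and Cdx2, without a match, ranked 2 and 3 in every group, and Sp8 ranked 4 or 5. A link between matches and level was not tested.

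Per length of exon, T stood far above the others. Its mean was 165 ± 24.1 CPM per kilobase (SD, n = 4) in the induced libraries, 129 ± 3.41 (n = 3) without Cre and 111 ± 48.6 (n = 3) in wild type. In the no-Cre group the order of levels after T was Sp5 at 36.6, Cdx2 at 32.7, Greb1 at 24.1, Sp8 at 23.3, Cdx4 at 21.7, Evx1 at 14.3, Epha1 at 7.94, Nkx1-2 at 5.07 and Cdx1 at 1.16 CPM per kilobase. Only Greb1 and Sp8 overlapped with their neighbour in that group. The same genes held ranks 1 to 3 and 7 to 10 in all 3 groups, while Greb1, Sp8 and Cdx4 changed places between ranks 4 and 6. In the induced group the libraries overlapped between Sp5 and Cdx2, between Cdx4 and Sp8 and between Sp8 and Greb1. In wild type each of Sp5, Cdx2, Sp8, Greb1, Cdx4 and Evx1 overlapped with the next gene in the order. Among the 3 Cdx genes Cdx2 was the highest and Cdx1 the lowest in each group, with Cdx1 at 2.1, 1.16 and 0.15 CPM per kilobase in induced, no-Cre and wild-type libraries.

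**Figure D1:**
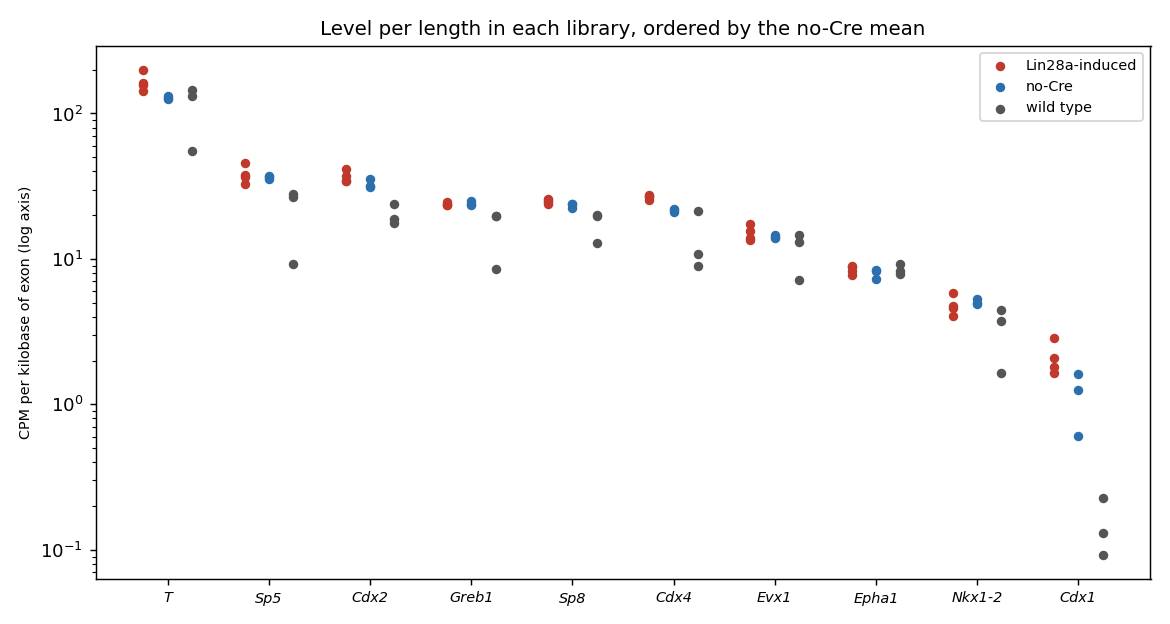
CPM per kilobase of exon (log axis) for the 10 genes, with 1 point per library coloured by group and genes ordered by the no-Cre mean. T lies above every other gene, Cdx1 lies lowest, and wild-type replicate 2 forms the low point of the wild-type column for T, Sp5, Greb1 and Sp8.

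T, the founding T-box gene (chr17:8434423-8442496, plus strand, mm10), was at 459.6, 362, 377 and 328 CPM in induced replicates 2, 3, 4 and 5. It was at 306, 296 and 291 CPM without Cre and at 307, 127 and 334 CPM in wild type. All 4 induced libraries were above all 3 no-Cre libraries, and the nearest pair was induced replicate 5 and no-Cre replicate 6. The difference was 0.36 ± 0.30 in log2 fold change (95% interval -0.35 to 1.06), which did not pass the test (edgeR adjusted p = 0.639). Against wild type the difference was 0.58 ± 0.30 for the induced group (adjusted p = 0.156) and 0.22 ± 0.32 for the no-Cre group (adjusted p = 0.619). Without wild-type replicate 2, the low library, these became 0.25 (adjusted p = 0.118) and -0.11 (adjusted p = 0.534), so the no-Cre group's direction turned.

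The 3 Cdx genes, homeobox factors of posterior identity, were each higher in the induced libraries than in wild type. Cdx1 (chr18:61018862-61036199, minus strand) had 3.17, 2.87, 5.02 and 3.66 CPM in the induced libraries, 2.84, 2.20 and 1.06 without Cre and 0.398, 0.162 and 0.23 in wild type. Those levels rest on 96 to 160 reads, 31 to 109 reads and 4 to 10 reads per library. The groups did not overlap in any of the 3 comparisons, though induced replicate 3 and no-Cre replicate 6 nearly met. Cdx1 was 13.7-fold higher in induced than in wild-type libraries (95% interval 7.3 to 25.7, adjusted p = 9.78e-06) and 7.67-fold higher without Cre than in wild type (3.93 to 14.9, adjusted p = 0.000193). Between induced and no-Cre libraries it differed by 0.84 ± 0.30 in log2 fold change, a 1.79-fold difference that did not pass (adjusted p = 0.172).

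Cdx2 (chr5:147300805-147307270, minus strand), needed for posterior axis growth, was at 93.5, 77.5, 83.5 and 77.3 CPM in the induced libraries. It was at 79.9, 70.2 and 72 CPM without Cre and at 54, 42.5 and 40 CPM in wild type. Every library of the 2 doxycycline-treated groups was above every wild-type library, while the treated groups overlapped with each other. The log2 fold change was 0.86 ± 0.10 for induced against wild type (adjusted p = 2.67e-05) and 0.70 ± 0.11 for no-Cre against wild type (adjusted p = 0.000291). Between induced and no-Cre libraries it was 0.16 ± 0.10 (95% interval -0.05 to 0.38, adjusted p = 0.46). Cdx2 is 1 of the 2 genes of the 10 that wild-type replicate 2 hardly lowered, at 90.3% of the mean of the other 2 wild-type libraries.

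Cdx4, the X-linked Cdx gene (chrX:103321398-103330592, plus strand), was at 54.2, 49.8, 52.5 and 52.8 CPM in the induced libraries and at 42.9, 43.5 and 41.3 CPM without Cre. In wild type it was at 21.2, 17.5 and 41.7 CPM, where replicate 3 stood near the no-Cre level. The induced libraries lay above all others, and the 2 treated groups were the least scattered, with coefficients of variation of 3.54% and 2.65%. In the fit of all 10 libraries the difference between induced and no-Cre was 0.30 ± 0.25 (adjusted p = 0.631). In a fit of these 2 groups alone it was 0.29 ± 0.05 (adjusted p = 0.00147) and passed, as it did when any 1 of the 7 libraries was left out (adjusted p from 0.00185 to 0.0103). The 2-group fit of all 7 libraries called 11.2% of its 15983 genes, against 2.91% in the fit of all libraries. That share was not computed for the 2-group fits with a library left out. The fold change is nearly the same in both fits and the standard error is not, because the fit of all libraries shares its spread with wild type, where Cdx4 varied by 48.7%. It also passed without wild-type replicate 3 in the fit of all other libraries (adjusted p = 0.0279). Against wild type Cdx4 was higher by 0.97 ± 0.26 in the induced group (adjusted p = 0.0136). In the no-Cre group it was higher by 0.67 ± 0.27 (adjusted p = 0.0768), and by 1.14 (adjusted p = 6.65e-07) without wild-type replicate 3.

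In the 2-group fit T differed by 0.35 ± 0.11 and did not pass (adjusted p = 0.101). Of the 7 fits that left out 1 library it passed in 2, without induced replicate 2 (adjusted p = 0.00322) or without induced replicate 5 (adjusted p = 0.0299). The share of all genes called in those 7 fits was not computed, and the 2-group fit with no library left out called 11.2%. Replicate 2 was the highest induced library for T, at 459.6 CPM.

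Sp5 and Sp8 are zinc finger factors that act with Wnt signals in the tail bud. Sp5 (chr2:70474923-70477729, plus strand) was at 96, 79.5, 77.1 and 69 CPM in the induced libraries, 74.8, 77 and 78.5 without Cre and 56.3, 19.4 and 59.1 in wild type. Wild type lay below both treated groups, but the differences of 0.84 ± 0.34 for induced (adjusted p = 0.0762) and 0.77 ± 0.36 for no-Cre (adjusted p = 0.123) did not pass. Without wild-type replicate 2 they were smaller, at 0.48 and 0.41, and passed (adjusted p = 0.00488 and 0.0154). Between induced and no-Cre libraries Sp5 differed by 0.07 ± 0.33 (95% interval -0.70 to 0.83).

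Sp8 (chr12:118846329-118852576, plus strand) was at 117, 112, 116 and 109.5 CPM in the induced libraries, 102, 108 and 108 without Cre and 92, 59.1 and 89.9 in wild type. All 3 groups were separate in that order, though the gap between induced and no-Cre was small. Sp8 was higher than wild type by 0.50 ± 0.12 in the induced group (adjusted p = 0.00575) and by 0.40 ± 0.13 in the no-Cre group (adjusted p = 0.0274). Without wild-type replicate 2 these were 0.32 and 0.22 (adjusted p = 5.58e-05 and 0.00218). The no-Cre result missed the threshold without filter, in a fit of 2 groups or with any 1 no-Cre library left out, with adjusted p from 0.053 to 0.0769. Between induced and no-Cre the difference of 0.10 ± 0.12 had an adjusted p of 0.766.

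Nkx1-2 and Evx1 are homeobox genes of the progenitor zone, Nkx1-2 on its neural side and Evx1 in the posterior streak and tail bud. Nkx1-2 (chr7:132594878-132599637, minus strand) was at 19.1, 15.5, 15 and 13.3 CPM in the induced libraries, 17.2, 16 and 16.4 without Cre and 14.5, 5.39 and 12.2 in wild type. The no-Cre libraries all lay inside the range of the induced ones, with a difference of -0.08 ± 0.26 (95% interval -0.65 to 0.50, adjusted p = 0.931). Against wild type Nkx1-2 differed by 0.56 ± 0.27 (induced, adjusted p = 0.115) and 0.63 ± 0.28 (no-Cre, adjusted p = 0.102). Without wild-type replicate 1 these were 0.85 and 0.93 and passed (adjusted p = 0.0273 and 0.0256). Each passed in only 1 of the 10 fits that left out a library. Over all alternative fits the difference ran from 0.23 to 1.06 for the induced group and from 0.31 to 0.93 for the no-Cre group. An antisense gene covers 16.6% of the Nkx1-2 exon bases, and since the strand setting of the counting is not given, reads of this pair cannot be told apart.

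Evx1 (chr6:52313498-52318378, plus strand) was at 50, 40.4, 44.8 and 39.1 CPM in the induced libraries, 40.3, 41.8 and 40.8 without Cre and 42.2, 20.7 and 37.6 in wild type. All 3 groups overlapped. The differences were 0.09 ± 0.20 between induced and no-Cre, 0.38 ± 0.21 between induced and wild type and 0.29 ± 0.22 between no-Cre and wild type (adjusted p = 0.898, 0.16 and 0.315). Without wild-type replicate 1, a fit that keeps the low replicate 2, the induced group was higher than wild type by 0.58 (adjusted p = 0.0444). It passed in only 1 of 19 alternative fits of this comparison, and the difference ran from 0.12 to 0.67 over them.

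Epha1 (chr6:42358487-42373268, minus strand) encodes a receptor for ephrin-A ligands that is expressed in the primitive streak and its descendants. It was at 34.8, 32.2, 35.1 and 30.7 CPM in the induced libraries, 32.3, 32.9 and 28.4 without Cre and 32.5, 36.5 and 30.7 in wild type. Its 3 log2 fold changes were all within 0.09 of 0, with intervals of -0.08 to 0.26, -0.17 to 0.17 and -0.28 to 0.09 in log2 fold change for induced against no-Cre, induced against wild type and no-Cre against wild type. Wild-type replicate 2, low for other genes of the set, was the highest library here. Epha1 shares 5.06% of its 32-base words with another annotated gene, and the protein-coding gene Zyx, on the opposite strand, covers 6.01% of its exon bases.

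Greb1 (chr12:16670615-16800886, minus strand), named for its response to estrogen in breast cells and expressed in the growth zone, was at 229, 237, 227 and 225 CPM in the induced libraries. It was at 225, 228 and 240.3 CPM without Cre and at 189, 81.2 and 189 CPM in wild type. The treated groups overlapped, with a difference of -0.01 ± 0.26 (95% interval -0.60 to 0.59, adjusted p = 0.995), and every wild-type library lay below both. The differences from wild type were 0.58 ± 0.26 (induced, adjusted p = 0.1) and 0.59 ± 0.28 (no-Cre, adjusted p = 0.124). Without wild-type replicate 2 they were 0.28 and 0.29 and passed (adjusted p = 0.000165 and 0.000236). An antisense gene covers 7.68% of the Greb1 exon bases.

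**Figure D2:**
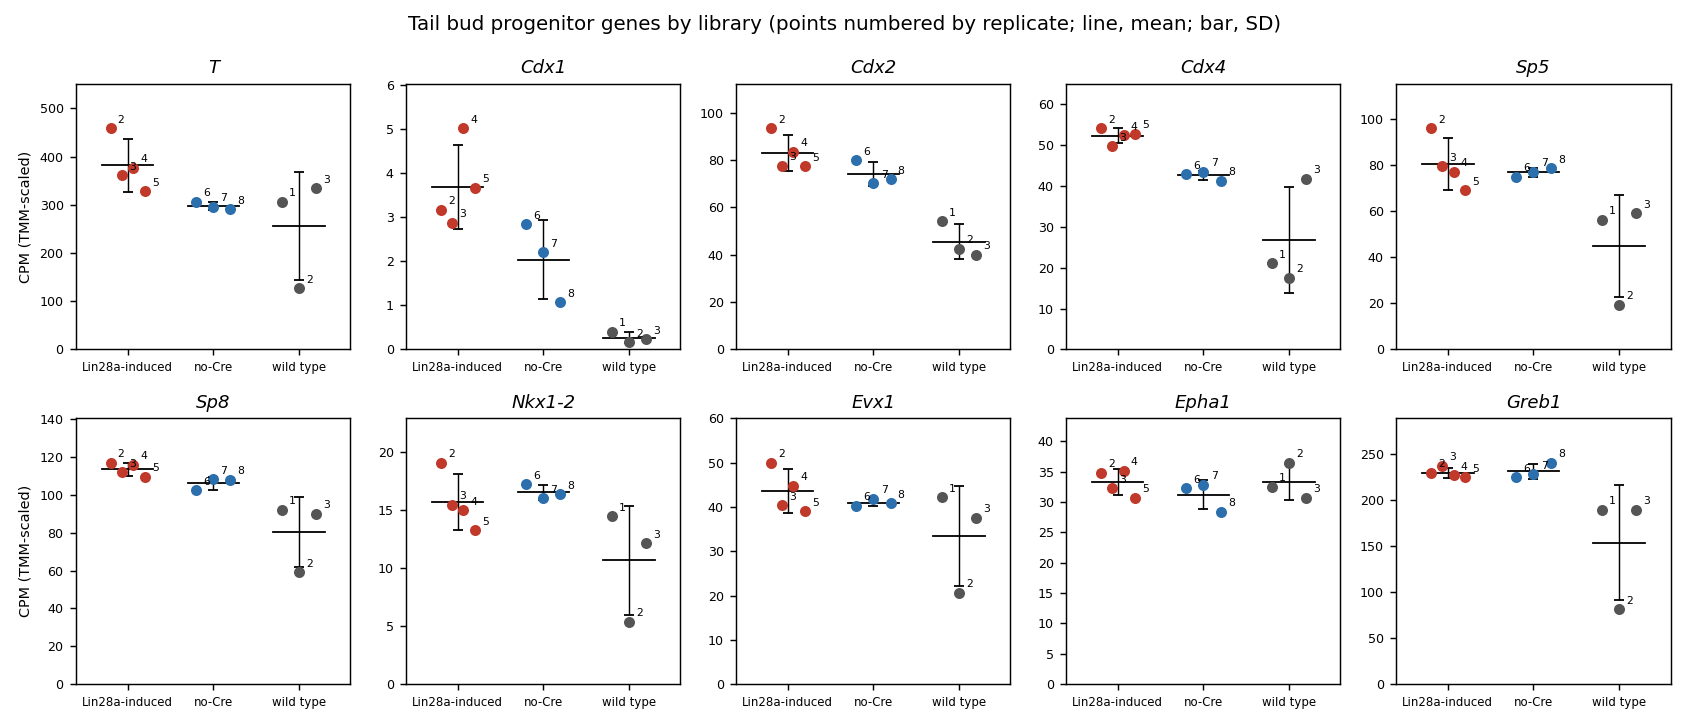
Level of each gene in each library in CPM (TMM-scaled), 1 panel per gene, with points numbered by replicate, the group mean as a line and the SD as a bar. Wild-type replicate 2 is the lowest library for every gene except Cdx2 and Epha1, and the induced libraries of Cdx4 lie between 49.8 and 54.2 CPM, above the no-Cre libraries between 41.3 and 43.5 CPM.

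Counted over the set, 0 of the 10 genes passed edgeR's test between induced and no-Cre libraries, where 2.91% of all tested genes passed. At an unadjusted p under 0.05 there was 1, Cdx1, as were 2658 of all 16340 tested genes. DESeq2 and limma-voom called 0 of the 10 as well, where they called 6.01% and 3.29% of all tested genes. The signs were positive for 8 of the 10, with a median log2 fold change of 0.09 against -0.00 over all genes. T, Cdx1, Cdx4 and Sp8 had induced libraries that all lay above all no-Cre libraries, 4 of 10 where 12% of all tested genes did. Against wild type, 4 of the 10 were higher in the induced group (Cdx1, Cdx2, Cdx4 and Sp8) and 0 lower, where 24.3% of all genes were higher and 25% lower. Their libraries did not overlap with wild type for 6 of the 10, where 24.7% of all genes lay wholly above. For no-Cre against wild type 3 were higher (Cdx1, Cdx2 and Sp8) and 0 lower, where 21% were higher and 21.4% lower. Here too the libraries of 6 genes lay wholly above wild type, as did 25.8% of all genes. With limma-voom 8 of the 10 were higher in the induced group, where 24.7% of all genes were, and 7 in the no-Cre group, where 21.4% were. The medians of the 10 were 0.58 and 0.61, and both were 0.30 without wild-type replicate 2. Without that library 6 and 5 of the 10 were higher, where 22.7% and 19.5% of all genes were. These 2 comparisons share the wild-type libraries, so they are not independent of each other.

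**Figure D3:**
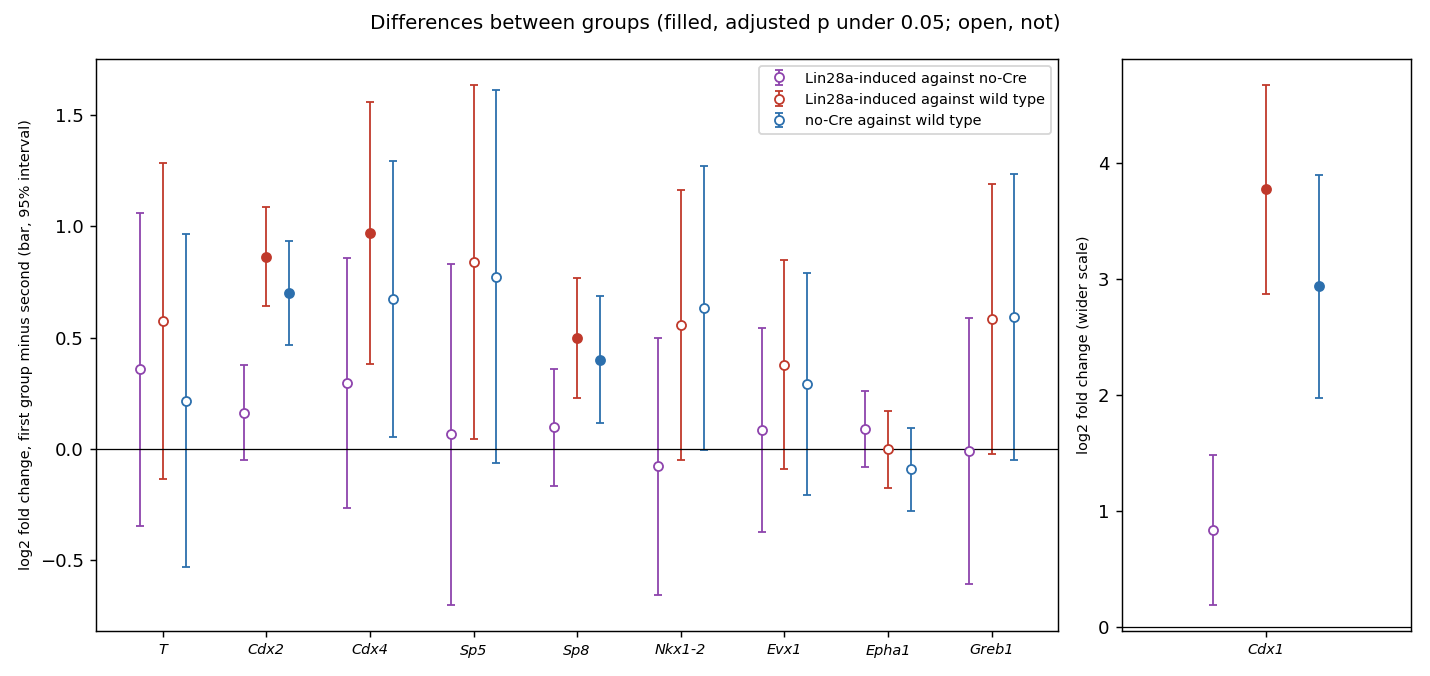
Log2 fold change of each gene in the 3 comparisons (points) with 95% intervals (lines), from the fit of all 10 libraries, filled where the adjusted p is under 0.05, with Cdx1 on a wider scale. Intervals between induced and no-Cre libraries include 0 for every gene except Cdx1, whose interval of 0.19 to 1.49 lies above 0 before adjustment over all genes.

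Among the 4 induced libraries the set varied in a shared order. Replicate 2 was the highest library for 7 of the 10 genes (T, Cdx2, Cdx4, Sp5, Sp8, Nkx1-2 and Evx1) and replicate 5 was the lowest for 8 of 10. Over all tested genes replicate 2 was highest for 28.1% and replicate 5 lowest for 24.9%. The presomitic genes downstream of T, summed, were at 1712 CPM in induced replicate 2 and 1201 CPM in induced replicate 5, and endothelial markers were at 295 and 399 CPM in the same libraries. Their part in the order was not tested.

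Wild-type replicate 2 stands apart from the other wild-type libraries for most of these genes. Relative to the mean of wild-type replicates 1 and 3, Sp5 was at 33.7%, T at 39.7%, Nkx1-2 at 40.5%, Greb1 at 42.9%, Cdx1 at 51.7%, Evx1 at 51.9%, Cdx4 at 55.7%, Sp8 at 65%, Cdx2 at 90.3% and Epha1 at 115%. Among all 9752 tested genes with a mean of at least 10 CPM, 108 (1.11%) were at a ratio under 0.5, and the median gene was at 0.974. Of the 12 tested growth zone genes 6 were under 50% in the same library, with a median of 52.1%. They ranged from Fgf4 at 18.9%, Fgf8 at 21.7% and Wnt3a at 30.7% to Fgf18 at 127%. Of the 10 presomitic genes 4 were under 50%, among them Msgn1 at 31.6%, Dll1 at 34.4% and Tbx6 at 45.9%, and the median was 59.2%. Mesp2, at 308%, and Ripply2, at 186%, both genes of the forming somite boundary, went the other way. Surface ectoderm markers summed to 851 CPM in this library and to 661 and 686 CPM in the other wild-type libraries. Hindgut endoderm markers summed to 909.9 CPM against 735 and 732 CPM. All 10 red blood cell markers were higher in this library, at 152% to 334% of the other wild-type mean, and summed to 8097 CPM against 2761 and 6151 CPM. Mitochondrially encoded genes took 2.69% of its counts against 2.02% and 1.85%. The part of these values in the low levels was not tested.

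**Figure D4:**
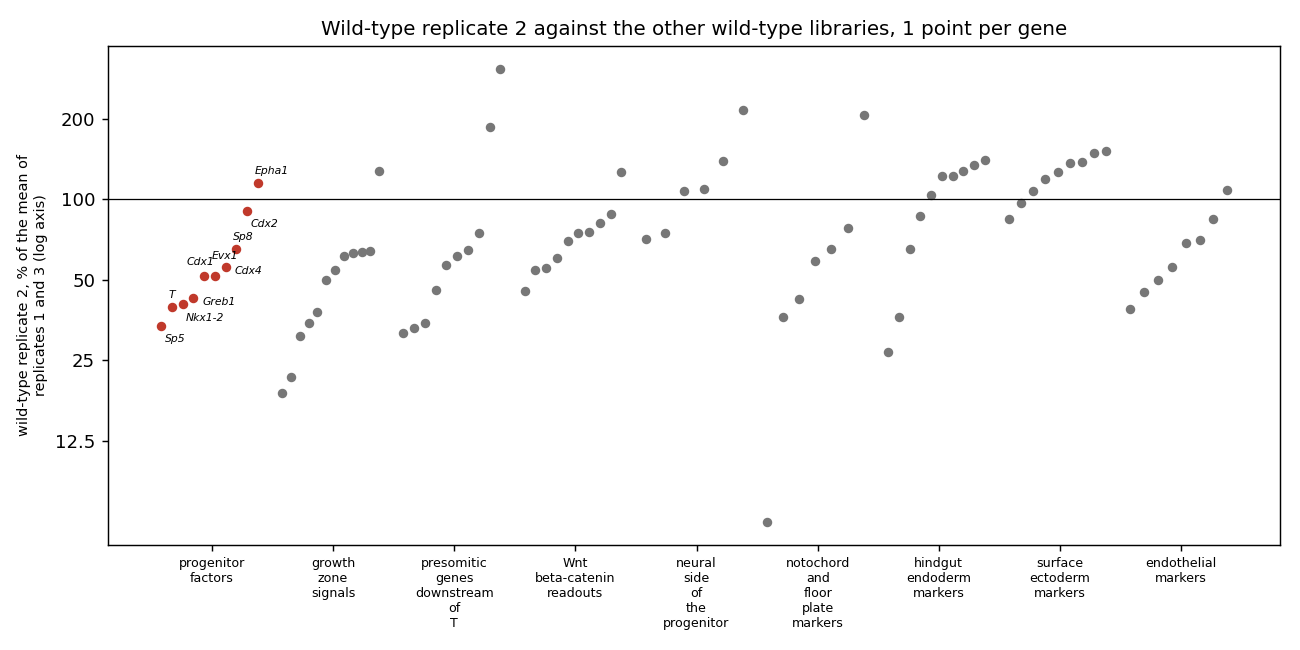
Level of single genes in wild-type replicate 2 as a percent of the mean of wild-type replicates 1 and 3 (log axis), grouped by gene list, with the 10 progenitor genes named. Of the 10, 4 lie under 50% and Epha1 lies above 100%, while surface ectoderm markers lie between 84.4% and 151%.

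The wild-type group as a whole also differed from both treated groups in its markers of other cells. All 9 surface ectoderm markers were lower in both treated groups than in wild type, and their sum ran from 203 to 234 CPM in induced, 217 to 245 CPM in no-Cre and 661 to 851 CPM in wild-type libraries. Krt5, a keratin of basal epithelium, was lower in the induced group by 2.46 on the log2 scale (adjusted p = 1.83e-07). The 10 tested hindgut markers summed to 315 to 363, 330 to 372 and 732 to 909.9 CPM, with 6 lower and 4 higher against wild type in each treated group. All 8 endothelial markers were higher, with sums of 295 to 399, 304 to 339.6 and 78.8 to 149 CPM. Of all tested genes 24.3% were higher and 25% lower in the induced group against wild type, and 21% and 21.4% in the no-Cre group. No marker of these 3 lists was at 0 in any library. Each comparison with wild type for Cdx1, Cdx2, Cdx4 and Sp8 carries these differences beside it, and their part in the result was not tested. Between induced and no-Cre libraries 0 of the markers of these 3 lists passed.

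The genes whose profile over the 10 libraries was most like that of T were named by the smallest root mean square difference in centred log2 CPM, among 9751 genes with a mean of at least 10 CPM. For T they were Rspo3, a secreted amplifier of Wnt signals, at 0.126, then Chst7 at 0.129, Pik3cd at 0.144, Cldn9 at 0.155 and Ptprm at 0.168. Of the other genes of the set Evx1 ranked 9, Greb1 22, Nkx1-2 24, Sp8 43 and Sp5 56 by likeness to T, while Cdx4 ranked 521, Cdx2 1539 and Epha1 6148. For Cdx2 the nearest were Mri1 at 0.0857, B3gnt7, Khsrp, Sema4c and Rrm2, and the nearest of the set was Sp8 at rank 488. Cdx1, with a mean under 10 CPM, was not ranked. For Greb1 they were Ets2 at 0.0748, Spred2, Heg1, Rftn1 and Adam19, with Nkx1-2 at rank 25. These measures rest on 10 libraries that share their groups and depth, and wild-type replicate 2 weighs in each.

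Genes of growth zone signalling were in part higher in both treated groups than in wild type. The list holds secreted Wnt, FGF and other factors and Cyp26a1, an enzyme that degrades retinoic acid. Of 12 tested, 0 passed between induced and no-Cre libraries, 6 were higher and 0 lower in the induced group against wild type, and 6 were higher and 0 lower in the no-Cre group. Their median log2 fold changes were 0.04, 0.73 and 0.64. Of all tested genes 2.91% passed between induced and no-Cre libraries. Against wild type 24.3% were higher and 25% lower in the induced group, and 21% and 21.4% in the no-Cre group. Fgf18, a secreted growth factor, was at 44.7, 43.1, 45.7 and 54.5 CPM in induced, 54.4, 58.4 and 53.5 in no-Cre and 11.5, 15.9 and 13.5 in wild-type libraries, a rise of 1.79 ± 0.11 for induced against wild type (adjusted p = 5.26e-08). Wnt8a rose by 1.62 ± 0.22 and Wnt5b by 0.97 ± 0.12 in the same comparison (adjusted p = 4.41e-05 and 3.75e-05). Wnt3a, at 57.4, 42.8, 51.7 and 41.1 CPM in induced, 51.1, 41.6 and 46 in no-Cre and 48.8, 14.3 and 44.4 in wild-type libraries, did not pass in any comparison. In the fit without wild-type replicate 2, 13 of the list were tested. Against wild type 9 were higher in the induced group and 7 in the no-Cre group, where 22.7% and 19.5% of all genes were. Between induced and no-Cre libraries 4 passed as higher and 0 as lower, where 4.65% of all genes were higher. That fit called 8.87% of all genes between these 2 groups, against 2.91% in the fit of all libraries.

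The presomitic genes downstream of T, which mark the mesodermal fate of the progenitor, had the largest median of the 6 pathway lists against wild type. Of 10 tested, 6 were higher in the induced and 7 in the no-Cre group against wild type, with medians of 1.31 and 1.47, and 0 passed between induced and no-Cre libraries. Of all tested genes 24.3% and 21% were higher in these groups against wild type. In the fit without wild-type replicate 2, 1 of the 10 was lower and 0 higher between induced and no-Cre libraries, where 8.87% of all genes passed. Pcdh8, a protocadherin of the presomitic mesoderm, was 4.9-fold higher in induced and 6.85-fold higher in no-Cre than in wild-type libraries (adjusted p = 2.12e-06 and 1.3e-06). Lfng rose by 1.71 ± 0.31 and Dll3 by 1.59 ± 0.36 in induced against wild type (adjusted p = 0.00267 and 0.00789); both belong to the Notch clock of segmentation. Tbx6, the T-box gene that directs progenitors to mesoderm, differed by 0.73 ± 0.27 in the induced group (adjusted p = 0.0546) and rose by 0.92 ± 0.28 in the no-Cre group (adjusted p = 0.0326).

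On the neural side of the progenitor, 1 of 6 tested genes passed between induced and no-Cre libraries, where 2.91% of all tested genes passed. In the fit without wild-type replicate 2, 2 of the 6 were lower and 0 higher, where 8.87% of all genes passed. Sox3, a paralog of Sox2 in neural progenitors, was at 2.11, 3.05, 2.95 and 2.64 CPM in induced and at 4.74, 4.94 and 5.66 CPM in no-Cre libraries. It fell by 0.92 ± 0.18 (adjusted p = 0.0138), with every induced library below every no-Cre library. In wild type Sox3 was at 2.11, 1.42 and 1.88 CPM, so that the no-Cre libraries were the highest of all. It was higher than wild type by 1.5 ± 0.20 in the no-Cre group (adjusted p = 7.33e-05) and by 0.58 ± 0.20 in the induced group (adjusted p = 0.0269). Sox2, at 54, 59.7, 53.9 and 47.1 CPM in induced and 65.8, 70.7 and 81.1 CPM in no-Cre libraries, differed by -0.43 ± 0.11 (adjusted p = 0.07). Against wild type, at 60.7, 42.7 and 53.7 CPM, Sox2 was higher by 0.47 ± 0.12 in the no-Cre group (adjusted p = 0.0102) and differed by 0.04 ± 0.12 in the induced group (adjusted p = 0.823). Hes3, a Notch effector of neural progenitors, differed by -1.60 ± 0.51 (adjusted p = 0.118). Over the 6 genes, 1 was higher and 2 lower in the induced group against wild type, and 2 were higher and 1 lower in the no-Cre group. Of all tested genes 24.3% were higher and 25% lower in the induced group, and 21% and 21.4% in the no-Cre group. Irx3, a neural tube gene, was lower than wild type by 1.95 on the log2 scale in the induced group (adjusted p = 1.74e-05).

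Wnt/beta-catenin readouts moved in both directions. Of 10 tested, 4 were higher and 3 lower in the induced group against wild type, 3 were higher and 3 lower in the no-Cre group, and 0 passed between induced and no-Cre. Of all tested genes 24.3% were higher and 25% lower in the induced group against wild type, and 21% and 21.4% in the no-Cre group. In the fit without wild-type replicate 2, 3 of the 10 were lower and 0 higher between induced and no-Cre libraries, where 8.87% of all genes passed. The feedback genes Rnf43, with a log2 fold change of -0.85 ± 0.09, and Notum, with -0.81 ± 0.13, were lower in induced than in wild-type libraries (adjusted p = 4.76e-06 and 0.000254). Tcf7, which binds the TCF/LEF motif, was higher by 0.58 ± 0.08 (adjusted p = 8.47e-05).

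Ephrin-A genes encode the ligands of Epha1. Of the 5, 4 were higher in the induced group against wild type, and 0 passed in the no-Cre group against wild type or between induced and no-Cre libraries. In the fit without wild-type replicate 2, 1 of the 5 was higher and 0 lower between induced and no-Cre libraries, where 8.87% of all genes passed. In the induced group against wild type 24.3% of all tested genes were higher. Efna1 was higher by 0.34 ± 0.09, Efna3 by 0.34 ± 0.10 and Efna2 by 0.21 ± 0.07 (adjusted p = 0.00786, 0.0123 and 0.0263). Efna4 differed by -0.16 ± 0.08 (adjusted p = 0.115). Of 15 tested paralogs of the set, 4 were higher and 6 lower in the induced group against wild type, and 5 and 6 in the no-Cre group. The shares over all tested genes were 24.3% higher and 25% lower in the induced group, and 21% and 21.4% in the no-Cre group. Greb1l, the paralog of Greb1, was at 226, 308, 292 and 342 CPM in induced, 268, 248 and 237 in no-Cre and 95.9, 109.8 and 95.6 in wild-type libraries. It rose by 1.54 ± 0.12 for induced against wild type (adjusted p = 1.88e-06), and wild-type replicate 2 was not low for it. Epha7 and Epha3, receptors related to Epha1, fell by 0.94 and by 1.79 on the log2 scale (adjusted p = 0.000183 and 0.000407).

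Notochord cells also express T. Of their markers, none of the 7 tested passed between induced and no-Cre libraries, although all 7 signs were negative and their sum ran from 48.3 to 56 CPM in induced and from 63.3 to 72 CPM in no-Cre libraries. Against wild type 4 of 7 were higher and 1 lower in the induced group, and 5 were higher and 1 lower in the no-Cre group. Of all tested genes 24.3% were higher and 25% lower in the induced group, and 21% and 21.4% in the no-Cre group. The sum of the notochord list was 27.4 to 46.9 CPM in wild type. The lower gene was Foxj1, a factor of motile cilia, with -1.55 ± 0.24 and -1.53 ± 0.26 (adjusted p = 0.000164 and 0.000522). Shh, a notochord and floor plate signal, was higher by 1.05 ± 0.30 in the induced group (adjusted p = 0.0168). The notochord homeobox gene Noto varied widely within wild type, with 2.03 CPM in replicate 1, 0.243 in replicate 2 and 5.78 in replicate 3.

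**Figure D5:**
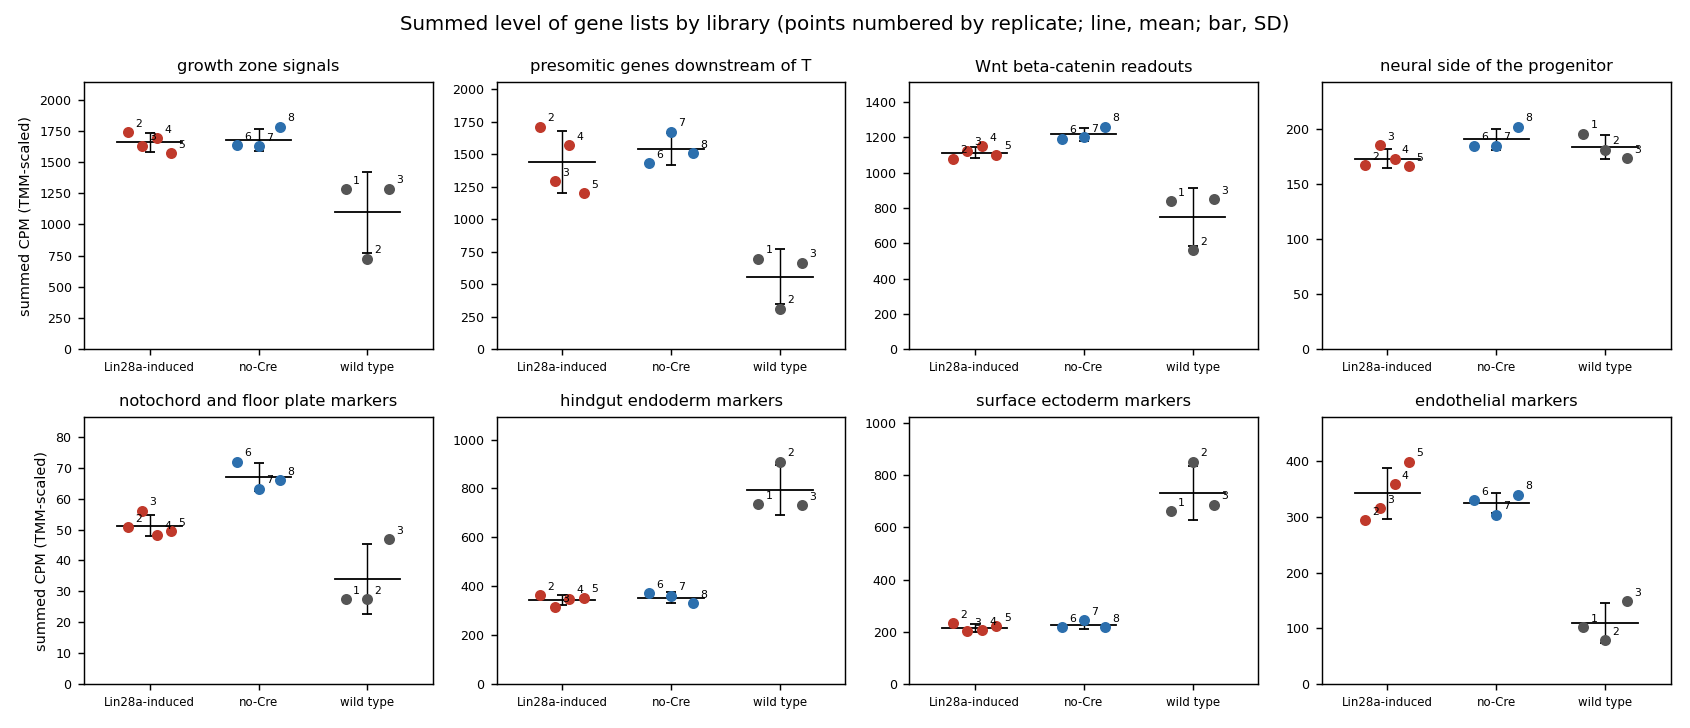
Summed CPM of 8 gene lists in each library, with points numbered by replicate, the group mean as a line and the SD as a bar. Growth zone signals and presomitic genes are lowest in wild type, where replicate 2 is the lowest library, while hindgut and surface ectoderm markers are highest in wild type and endothelial markers lowest.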

How the data were processed

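Gene expression was measured in 10 tail bud libraries (75-base single reads, stranded kit). The values are raw counts per gene symbol, as deposited by the authors. Per the submitters' processing notes the aligner was STAR 2.3.1z4, the genome build mm10 and the counter featureCounts, and DESeq2 is also listed. How strand and multiply aligned reads were handled is, in the sources used here, not given, and the labels name no batch.

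After filterByExpr and TMM scaling, the counts were fitted here with edgeR 4.0.16 (robust quasi-likelihood, 3 groups, all 10 libraries, no covariate). Benjamini-Hochberg adjustment ran over 16340 genes, with a threshold of 0.05. The standard error is the absolute log2 fold change over the square root of F. Every adjusted p is from edgeR unless another tool is named. Alternatives used DESeq2 1.42.0 and limma 3.58.1 (voom), RLE factors, other filters, only 2 groups, an ordinary spread, libraries without globin and mitochondrial genes, each library left out, and the replicate number as a block. Fits of 2 groups without each library, and lists without wild-type replicate 2, were chosen after the data were examined. The test was checked on simulated counts. Precision is set by 3 or 4 libraries per group. Software was R 4.3.3 and Python 3.11.15 with matplotlib 3.10.9, pandas 2.3.3 and numpy 2.4.6.

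All 10 genes matched GENCODE M21 by symbol. The genes and the 16 lists (6 pathway, 10 marker) were chosen with earlier results of these data known. All 10 genes are named, with up to 3 genes per pathway list by smallest p, up to 3 abundant genes per marker list, and the 5 genes most like T, Cdx2 and Greb1. Genes given for wild-type replicate 2, Sox2, Wnt3a, Tbx6, Noto, Foxj1 and Efna4 were named after their values were seen.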

Additional observations from a re-analysis of the deposited data

How the results depend on the processing

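The counts of the set changed with the fit. Between induced and no-Cre libraries 1 of the 10 genes passed with only the 2 groups compared, 0 to 1 with a library left out, and 1 to 2 in the 2-group fit with a library left out. Of all tested genes 11.2% passed in the 2-group fit and 0.624% to 8.87% with a library left out. For the 2-group fits with a library left out the share over all genes was not computed, so their count has no background beside it. The 2-group fit called 1791 genes, DESeq2 982 and the fits without a library from 104 to 1482, the most without wild-type replicate 2, against 476. With limma-voom 8 of the 10 passed for induced and 7 for no-Cre against wild type, where 24.7% and 21.4% of all genes were higher. For no-Cre it was 6 with a spread that is not robust and 5 without wild-type replicate 2, where 21.1% and 19.5% of all genes were higher. The replicate block (numbers 2 and 3, induced and wild type) called 3831 genes against 8050, which was 24% of all tested genes, with 11.3% higher. It called 3 of the 10 genes, with Cdx4 at adjusted p = 0.483. Deviations from the group means had correlations across genes of -0.03 and -0.08 for same-numbered libraries, and -0.02 and 0.13 between unlike numbers. So few correlations cannot decide whether the numbers pair the samples, and the labels do not say.

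Signs near 0 turned. Epha1 in induced against wild type was 0.0027 with DESeq2, 0.0032 with RLE factors and 0.016 without filter, and ran from -0.054 to 0.067 with 1 library left out (highest without wild-type replicate 2). With 1 library left out, Greb1 between induced and no-Cre ran from -0.030 to 0.021, Sp5 from -0.031 (without induced replicate 2) to 0.13, and T for no-Cre against wild type from -0.11 (without wild-type replicate 2) to 0.46. The cause was not tested. For Cdx1 in wild type, 4 to 10 reads per library limit the size of the fold.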
